A study of Mus musculus with 10 samples.

Results

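The protein-coding Hox cluster genes of the mouse were followed through 10 libraries of mouse embryonic stem cells. Members were the genes typed as protein-coding in the expression tables whose symbol was Hoxa, Hoxb, Hoxc or Hoxd and a number. The rule found 34 of the 22200 protein-coding genes listed (36586 named genes in all): 10 in the HoxA cluster on chromosome 6, 9 in HoxB on chromosome 11, 8 in HoxC on chromosome 15 and 7 in HoxD on chromosome 2. Hoxa3, Hoxb8, Hoxc5, Hoxd4 and Hoxd11, which bring the RefSeq total to 39, were not analysed here.

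Expression was measured by poly-A RNA-seq in 4 libraries of the JM8.N4 embryonic stem cell line, 1 library per genotype: wild type, Rad23b-null (Rad23b-/-), and Rad23b-null cells in which 1 of 2 independent short hairpins lowered Xpc (knockdown 1 and knockdown 2). All 3 mutant lines are labelled Rad23b-/-, so Xpc was lowered only on that background, and all 3 comparisons share the 1 wild-type library. The sources used here do not say whether a mutant line is 1 clone. RAD23B binding to chromatin was measured by ChIP-seq with guinea pig antibodies in another line, D3, in 2 wild-type replicates each beside a normal IgG library, and in Xpc-null (Xpc-/-) cells with 1 RAD23B and 1 IgG library. The labels do not say whether the replicates were separate cultures.

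Hox genes encode homeodomain transcription factors that set position along the body axis. They lie in clusters whose gene order follows the order of activation in the embryo, from the 3' genes (low paralogue numbers), which respond first to retinoic acid and Wnt signals, to the 5' genes of paralogue group 13, which act at the tail end and in distal limbs. In embryonic stem cells the clusters are held at low output and carry Polycomb marks. RAD23B is a partner of XPC in the complex that recognises damaged DNA in nucleotide excision repair, and the same complex has been described as a coactivator of OCT4 and SOX2 in stem cells.

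RNA levels are given as the authors' RPKM (reads scaled to transcript length and to the mapped reads of the library). Differences between a mutant library and wild type are given as a ratio of RPKM or as a log2 ratio after adding 1 to both values, a scale on which low genes differ less. A gene was counted as 2-fold apart on the second scale if it reached 1 RPKM in either library. With 1 library per genotype there was no test, and no difference between genotypes could be set against a spread between replicates. Rad23b, the targeted gene, stood at 229 RPKM in wild type and at 43.9, 35.8 and 52.5 in the Rad23b-null, knockdown 1 and knockdown 2 libraries, so RNA at 0.191, 0.161 and 0.233 times the wild-type level was still listed in lines labelled null. The deposited value covers the whole gene and does not show which part of the transcript these reads came from. Xpc stood at 8.73, 8.34, 0.915 and 0.895 in the same order, lower in both knockdown libraries. Pou5f1, which encodes OCT4, stood at 1603, 1152, 1468 and 1431 RPKM.

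The region before the start site is shown for 3 HoxD genes, because Hoxd1 and Hoxd13 had RAD23B regions at their listed start and Hoxd9 had none, while the RNA of all 3 was above wild type in every mutant library. The sequences are the 250 bases before the RefSeq start in GRCm38.p6, plus strand, 5' to 3', in lower case with each CG dinucleotide in capitals. RefSeq start sites may differ from those in the expression tables, which use mm9, and no coordinates were converted. The Hoxd13 stretch is chr2:74667975-74668224, that of Hoxd9 chr2:74697513-74697762 and that of Hoxd1 chr2:74762730-74762979.
Hoxd13: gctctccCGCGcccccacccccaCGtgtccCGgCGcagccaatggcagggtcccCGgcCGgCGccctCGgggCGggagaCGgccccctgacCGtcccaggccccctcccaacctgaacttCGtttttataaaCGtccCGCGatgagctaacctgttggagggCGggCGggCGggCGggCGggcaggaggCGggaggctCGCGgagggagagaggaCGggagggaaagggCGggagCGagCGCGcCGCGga
Hoxd9: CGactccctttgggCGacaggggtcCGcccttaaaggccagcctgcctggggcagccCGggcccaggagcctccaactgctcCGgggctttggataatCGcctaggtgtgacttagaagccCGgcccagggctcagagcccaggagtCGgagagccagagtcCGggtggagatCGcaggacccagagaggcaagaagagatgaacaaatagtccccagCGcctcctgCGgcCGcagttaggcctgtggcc
Hoxd1: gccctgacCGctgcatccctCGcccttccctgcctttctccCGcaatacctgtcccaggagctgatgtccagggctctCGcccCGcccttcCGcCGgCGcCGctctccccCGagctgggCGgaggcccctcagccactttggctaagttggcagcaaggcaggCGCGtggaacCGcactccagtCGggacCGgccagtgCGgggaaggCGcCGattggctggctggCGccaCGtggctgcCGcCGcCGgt
The Hoxd13 stretch holds 31 CG dinucleotides and has a GC content of 74.4%, that of Hoxd1 holds 24 (71.6%) and that of Hoxd9 13 (65.2%), against a median of 6 and 52.4% over the 32851 promoter entries in the table. The motif TATAAA, searched on both strands, was found in the Hoxd13 stretch and in 12.4% of all entries. It was not found in the Hoxd1 or Hoxd9 stretch. Only 18 of the 34 members had a promoter entry, under the share needed for a statement about the family, so none is made. CG counts did not follow RAD23B regions in every gene. The Hoxa13 stretch holds 35 CG with no region listed in both replicates at its start, and that of Hoxb1 holds 7 with one.

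Hox genes were near silent in wild-type cells, and most were higher in the mutant libraries. No member reached 1 RPKM in wild type, 8 were listed at 0, and the 34 together summed to 4.07 RPKM, with a median of 0.0324. The sum was 18.5 RPKM in Rad23b-null, 20.8 in knockdown 1 and 20.8 in knockdown 2, or 4.55, 5.23 and 5.19 times the wild-type sum of the same table. In those libraries 6, 7 and 7 members reached 1 RPKM, and 1 member was listed at 0 in each.

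Counted by direction at any size, 31, 32 and 33 of the 33 members above 0 in either library were higher than wild type in Rad23b-null, knockdown 1 and knockdown 2. The background for this count is high: of all protein-coding genes below 1 RPKM in wild type and above 0 in either library, 70.9%, 68.6% and 68.6% were higher. At 0.05 RPKM or more in either library, 27 of 27, 27 of 27 and 26 of 26 members were higher, against 74%, 72.6% and 71.9% of such genes. Sizes stood further from the background than directions: of the 26 members above 0 in wild type, 14, 15 and 16 had an RPKM at least 4 times wild type, against 15.6%, 13.5% and 12.3% of protein-coding genes above 0 and below 1 RPKM. The median RPKM ratio of these members was 4.30, 5.77 and 5.06, against 1.51, 1.39 and 1.39. These background genes were not matched to the members' wild-type levels, and some members share a locus. The part of either in the ratios was not tested. In each comparison the low genes as a whole were listed higher in the mutant library. The steps between low values put its depth at 1.29, 1.23 and 1.26 times wild type. This estimate was sought only among values at which the mutant library is deeper, so it cannot show that it was. RNA read totals are unknown, and the part of depth in these counts was not tested.

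Few members passed the stricter rule. On the log2 scale of RPKM + 1, 6, 7 and 7 members passed the filter on low values, and a gene below 1 RPKM in wild type could pass only through the mutant library. Of these, 2 were at least 2-fold higher in Rad23b-null, 3 in knockdown 1 and 3 in knockdown 2. They included Hoxd1 in each comparison, Hoxd13 in knockdown 1 and Hoxb13 in knockdown 2. Of all genes tested, 4.74%, 3.95% and 3.93% were 2-fold higher and 4.61%, 3.4% and 3.6% were 2-fold lower. Nothing is read from the members' counts against these shares, because a member reached the filter only where its mutant value was high, and none could be called 2-fold lower on this scale. With a pseudocount of 0.1 in place of 1 every member that passed the filter was called higher (6, 7 and 7), and the shares of all genes became 8.05%, 6.70% and 6.96%. The median log2 difference of all 34 members was 0.20, 0.27 and 0.26, while that of all genes passing the filter was -0.16, -0.14 and -0.14.

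**Figure D1:**
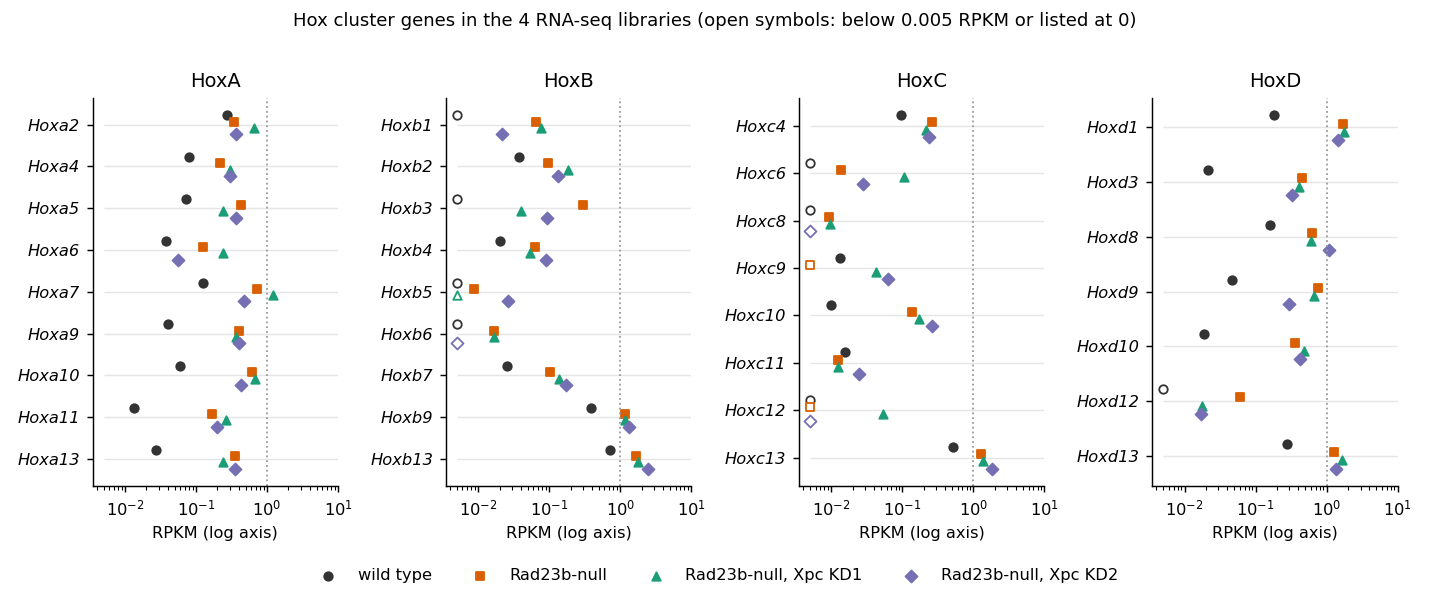
RPKM of 33 of the 34 Hox genes (rows, by cluster and paralogue number) in the 4 RNA-seq libraries, on a log axis; each symbol is 1 library, open symbols are values below 0.005 RPKM or listed at 0, and the dotted line marks 1 RPKM. The wild-type symbol is the leftmost in most rows, and in wild type no gene reaches the dotted line.

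In the HoxA cluster Hoxa7, which acts in the trunk, went from 0.127 RPKM in wild type to 0.723, 1.20 and 0.472, so the knockdowns bracketed the Rad23b-null value. Hoxa10, which acts in limb, reproductive tract and blood progenitors, stood at 0.0593, 0.609, 0.669 and 0.436 RPKM on coordinates of its own (chr6:52181195-52190853). Hoxa9, known from blood progenitors and leukaemia, stood at 0.0408, 0.397, 0.362 and 0.408. For Hoxa9 and Hoxa10 the mutant libraries lay closer to one another than any did to wild type.

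Hoxa13, the 5' gene of limb tips and the genital tract, stood at 0.0274 RPKM in wild type and at 0.351, 0.240 and 0.356. Hoxa11 stood at 0.0133 and at 0.167, 0.265 and 0.199. Further members are the trunk and hindbrain genes Hoxa2, Hoxa4, Hoxa5 and Hoxa6, which share 1 listed locus with Hoxa7 and with other genes. Hoxa2 differed least, at 0.269, 0.346, 0.661 and 0.365 RPKM. Hoxa4, Hoxa5 and Hoxa6 lay between 0.0375 and 0.0792 in wild type and between 0.0552 and 0.432 in the mutant libraries. All 10 HoxA genes were above wild type in each of the 3 mutant libraries. The share of all low genes above wild type in all 3 was not computed. Nothing is therefore read from this count or from those of the other clusters.

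In the HoxB cluster the 5' genes carried most of the RNA. Hoxb13, a gene of the tail end and the prostate, lies on coordinates of its own (chr11:96055629-96058761) and stood at 0.708 RPKM in wild type, 1.68 in Rad23b-null, 1.80 in knockdown 1 and 2.46 in knockdown 2, with log2 differences of 0.65, 0.73 and 1.03. Hoxb9, a thoracic gene (chr11:96132770-96137909), stood at 0.384, 1.17, 1.18 and 1.33. These 2 genes held a higher level than any other HoxB member in every library.

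The 3' HoxB genes stayed near 0. Hoxb1, an early hindbrain gene of the same paralogue group as Hoxd1, was listed at 0 in wild type and at 0.0653, 0.0778 and 0.0218 RPKM. Hoxb3 was listed at 0 and then at 0.2996, 0.0395 and 0.0939. Hoxb5 and Hoxb6 were listed at 0 in wild type and nowhere above 0.0261. Hoxb2, Hoxb4 and Hoxb7 lay between 0.0203 and 0.0375 in wild type and between 0.0545 and 0.186 in the mutant libraries. Of the 9 HoxB genes 8 were above wild type in each mutant library, Hoxb5 being at 0 in both wild type and knockdown 1.

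In the HoxC cluster Hoxc13, a gene of hair follicles and nails, held most of the RNA. It stood at 0.508 RPKM in wild type, 1.28 in Rad23b-null, 1.35 in knockdown 1 and 1.80 in knockdown 2 on coordinates of its own (chr15:102751533-102759245), and made up between 68.9% and 79.2% of the cluster's summed RPKM. Hoxc4 stood at 0.0948, 0.257, 0.213 and 0.237. Hoxc10, a hindlimb and lumbar gene, stood at 0.00987, 0.135, 0.170 and 0.262. No HoxC gene other than Hoxc13 exceeded 0.262 RPKM in any library.

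The other HoxC genes were too low to compare. Hoxc12 was listed at 0 in all libraries but knockdown 1 (0.0540 RPKM). Hoxc11 stood at 0.0157, 0.0122, 0.0124 and 0.0245. With the depths estimated above, the smallest matching read numbers were 1, 1, 1 and 2 (each within 0.1 of a whole number). Multiples of these match as well. Of the members on coordinates of their own and above 0 in wild type only Hoxc11 gave a match. Read numbers of the members are therefore not known. Hoxc9 stood at 0.0133 in wild type, 1.75e-06 in Rad23b-null and 0.0427 and 0.0629 in the knockdowns. Hoxc6 and Hoxc8 were listed at 0 in wild type and at no more than 0.107. Of the 8 HoxC genes 5 were above wild type in each mutant library.

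In the HoxD cluster several genes differed together. Hoxd1, the 3' gene of the cluster (chr2:74601036-74603200, coordinates of its own), stood at 0.179 RPKM in wild type, 1.71 in Rad23b-null, 1.76 in knockdown 1 and 1.44 in knockdown 2, log2 differences of 1.20, 1.23 and 1.05. Hoxd13, the 5' gene required for digits (chr2:74506366-74509656, coordinates of its own), stood at 0.278, 1.28, 1.64 and 1.35, log2 differences of 0.83, 1.05 and 0.89. For both ends of the cluster the lowest mutant value was more than 4 times the wild-type value.

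Between them lie Hoxd9 and Hoxd10, which pattern the limb and the lumbar cord, and Hoxd8 and Hoxd3, which share 1 listed locus. Hoxd9 stood at 0.0472 RPKM in wild type and at 0.766, 0.660 and 0.294. Hoxd10 stood at 0.0190, 0.361, 0.475 and 0.422. Both were higher in all 3 mutant libraries, and Hoxd9 was lower in knockdown 2 than in the other mutants. Hoxd8 stood at 0.161, 0.624, 0.606 and 1.09. Hoxd3 stood at 0.0213, 0.447, 0.408 and 0.327. Hoxd12 was listed at 0 in wild type and at 0.0597, 0.0174 and 0.0170, so it stayed low between neighbours that did not. All 7 HoxD genes were above wild type in each mutant library.

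By cluster, summed RPKM went from 1.55 in wild type to 8.09, 9.76 and 9.10 for HoxA, from 1.18 to 3.50, 3.49 and 4.34 for HoxB, from 0.642 to 1.71, 1.96 and 2.41 for HoxC and from 0.705 to 5.24, 5.57 and 4.95 for HoxD. Against wild type in the same table these were ratios of 5.22, 6.46 and 5.97 for HoxA, 2.98, 3.05 and 3.75 for HoxB, 2.67, 3.13 and 3.82 for HoxC, and 7.43, 8.10 and 7.14 for HoxD. HoxD and HoxA had the higher ratios and HoxB and HoxC the lower in each comparison, which share their wild-type library. Whether the clusters differ beyond replicate error cannot be tested with 1 library per genotype.

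**Figure D2:**
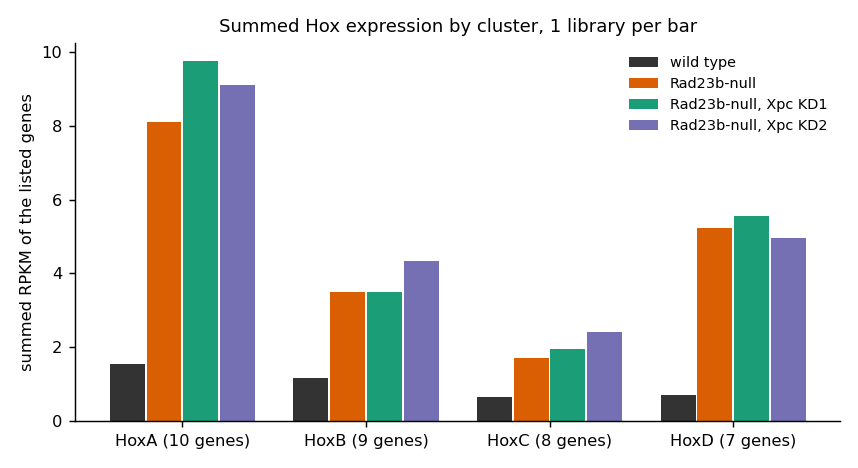
Summed RPKM of the listed Hox genes of each cluster in each RNA-seq library; each bar is 1 library, with no replicate and no error bar. Wild type is the lowest bar in each cluster, between 0.642 RPKM for HoxC and 1.55 for HoxA.

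Across clusters, genes of the same paralogue number are the closest relatives. Group 13 (Hoxa13, Hoxb13, Hoxc13 and Hoxd13) summed to 1.52 RPKM in wild type and to 4.595, 5.02 and 5.97 in the mutant libraries. Group 10 (Hoxa10, Hoxc10 and Hoxd10) went from 0.0882 to 1.11, 1.31 and 1.12. Group 9, with 4 listed genes, went from 0.486 to 2.33, 2.25 and 2.10. Groups 6, 11 and 12 were at 0.367 RPKM or less in every library.

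The knockdowns can be set beside Rad23b-null only through their values. Knockdown 1 and knockdown 2 each had a summed Hox RPKM of 20.8, against 18.5 in Rad23b-null. These sums were scaled separately and are not compared to their last digit. Wild-type values beside Rad23b-null were 1.026 and 1.017 times those beside knockdown 1 and knockdown 2. Over all genes the middle 68% of log2 differences between the knockdowns lay within 0.22 of their centre on either side, and 3.36% of genes were at least 2-fold apart between them. By that width 7 of the 34 members were further apart. Every gene outside the middle 68% is also beyond this width, so passing it marks no member as different. Of these 7, Hoxa2, Hoxa6, Hoxa7 and Hoxd9 were higher in knockdown 1, and Hoxb13, Hoxc13 and Hoxd8 in knockdown 2. Hoxa2, Hoxa6, Hoxa7 and Hoxd8 share their listed loci with other genes. With 1 library for each hairpin, a difference between the hairpins was not tested.

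The authors' deposited table gives a p-value for each gene, made from 1 library a side and with no adjustment stated. In the authors' deposited table the members with a p-value under 0.05 numbered 5, 8 and 9 of 34 in Rad23b-null, knockdown 1 and knockdown 2, against 1.65%, 1.63% and 1.72% of all named genes. Hoxd1 had 0.003, 0.001 and 0.003 in the authors' deposited table and Hoxd13 0.031, 0.004 and 0.012. Hoxd9 and Hoxa13 were under 0.05 in each of these authors' deposited tables as well.

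Other genes inside the clusters gave a mixed picture. Of 22 such genes 10 were above wild type in each mutant library and 6 were listed at 0 in all 4: 0610040B09Rik, Mir196a-2, Mir615, Gm16258, Gm14396 and Mir10b. The share of all genes above wild type in each mutant library was not computed. Gm53, a HoxB gene between Hoxb13 and Hoxb9 (chr11:96112418-96126182), stood at 1.89 RPKM in wild type, 18.2 in Rad23b-null, 6.15 in knockdown 1 and 5.34 in knockdown 2. Next to it the microRNA gene Mir196a-1 (chr11:96126477-96126579) was listed at 0, 20.7, 31.6 and 41.7. This gene model spans 103 bases, the reads behind its RPKM are unknown, and poly-A RNA-seq does not measure the mature microRNA. Mature miR-196a, a microRNA whose known targets include Hox genes, is shown as the product of this gene (RefSeq, GRCm38.p6), with the seed at bases 2 to 8 in capitals.
miR-196a-5p: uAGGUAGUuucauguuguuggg
The pseudogene Gm11539, in the same interval, was lower in the mutants, at 20.0, 15.4, 16.8 and 15.7 RPKM.

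Most antisense and long noncoding genes were low. In HoxD the antisense gene 6720416L17Rik, which shares a locus with 2 lincRNA genes between Hoxd3 and Hoxd1, stood at 0.0291 RPKM in wild type and 0.639, 0.945 and 0.802. In HoxA 2700086A05Rik stood at 0.104, 0.710, 0.670 and 1.09, and Hoxa11as at 0.0396, 0.262, 0.396 and 0.292. Those 3 were above wild type in each mutant, and all 3 share coordinates with other genes. A further 9 genes (5730446D14Rik, Gm15050, 5730596B20Rik, Gm11538, Gm11536, Hoxb3os, Gm14424, Gm14426 and 1700109F18Rik) were at no more than 0.395 RPKM in any library.

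The nearest protein-coding genes outside the clusters did not share 1 direction. Beside HoxA, Skap2 stood at 17.3, 19.1, 20.6 and 22.9 RPKM and the homeobox gene Evx1 at 0, 0.119, 0.229 and 0.0843. Beside HoxB, Ttll6 stood at 1.39, 3.92, 3.09 and 2.78 and Skap1 at 0.194, 0.291, 0.410 and 0.372. Ttll6 was thus higher in each mutant library, as Hoxb13 on that side was. Beside HoxC, Smug1, a DNA glycosylase gene, stood at 8.19, 6.29, 7.07 and 6.54 and Gm17649 at 0 throughout. Beside HoxD, Mtx2 stood at 69.6, 48.9, 56.5 and 54.7 and Evx2 at 0, 0, 0.00656 and 0.0129. Smug1 and Mtx2, the 2 expressed genes beside HoxC and HoxD, were lower in every mutant library.

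HOX proteins bind DNA with TALE homeodomain partners. Of the 9 TALE genes (Pbx, Meis and Pknox) none was 2-fold apart on the scale of RPKM + 1 in any comparison. Their median log2 difference was -0.05, -0.02 and 0.03, against -0.16, -0.14 and -0.14 over all genes passing the filter. Pbx2 stood at 23.5, 21.1, 20.5 and 22.9 RPKM and Pknox1 at 10.7, 7.68, 6.81 and 8.23. Meis1, which was picked out after its values were seen, stood at 0.531, 1.81, 1.45 and 1.63.

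Genes that act upstream of Hox clusters (Cdx factors, retinoic acid receptors and enzymes, and MLL complex subunits) were mixed as a list. Of 22, 14 passed the filter in each comparison. Of these 2 were at least 2-fold higher and 1 lower in Rad23b-null, 1 and 1 in knockdown 1, and 1 and 0 in knockdown 2, beside the shares of all genes given above (4.74%, 3.95% and 3.93% higher). The median log2 difference of the list was 0.07, 0.02 and 0.05. Rarg, a retinoic acid receptor gene, stood at 36.0 RPKM in wild type and 94.4, 86.5 and 96.5 in the mutants, all 3 more than 2-fold higher. Rara, on coordinates shared with another gene, stood at 38.6, 29.2, 25.3 and 25.9, and Rxrb at 19.5, 17.8, 15.4 and 18.1. Both were lower in each mutant but short of 2-fold. Cyp26a1, whose enzyme breaks down retinoic acid and which is induced by it, stood at 0.407, 2.20, 1.44 and 1.46. Crabp2, a retinoic acid binding protein, was lower, at 6.58, 2.49, 2.09 and 3.65. Cdx2, a direct activator of trunk Hox genes, stood at 0.0991, 0.649, 0.596 and 0.751, and Rarb, itself a retinoic acid target, at 0.0599, 0.516, 0.279 and 0.506; both were picked out after their values were seen. The MLL complex genes Ash2l (204, 122, 116 and 107 RPKM) and Wdr5 (108, 70.7, 72.1 and 64.5) were lower in each mutant but short of 2-fold.

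Polycomb proteins hold Hox clusters silent. On the scale of RPKM + 1, 2 of 29 Polycomb genes matched were 2-fold higher in Rad23b-null and 1 in each knockdown. None was 2-fold lower on that scale. Of all genes 4.74%, 3.95% and 3.93% were higher and 4.61%, 3.4% and 3.6% lower. Ring1, picked out after its values were seen, stood at 4.52, 1.98, 3.06 and 2.17 RPKM. Its ratios of RPKM were 0.437, 0.695 and 0.488. Phf19, an accessory subunit of the complex that methylates H3K27, stood at 2.04, 6.20, 6.45 and 4.36 RPKM. Cbx8, a chromodomain subunit, stood at 0.858, 12.7, 1.16 and 26.1, so it was high in 2 of the mutant libraries and not in knockdown 1. The core subunit gene Suz12 (239, 141, 150 and 156) and the accessory subunit gene Jarid2 (121, 122, 146 and 125) differed by less than 2-fold.

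Other homeobox genes that are usually silent in stem cells were also higher at low levels. Of 30 fixed by name (Pax, Lhx, Nkx, Dlx and other families), 24, 26 and 25 were above wild type at any size in Rad23b-null, knockdown 1 and knockdown 2, beside 70.9%, 68.6% and 68.6% of low protein-coding genes, and their summed RPKM went from 13.5 to 27.4, from 13.2 to 22.7 and from 13.3 to 28.4 in the 3 tables. Barx1 stood at 0.379, 2.53, 1.62 and 1.76, and Pax6, on coordinates shared with other genes, at 2.78, 4.20, 3.66 and 5.72. Their median log2 difference was 0.17, 0.19 and 0.23.

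Markers of other cells were read beside these results, since in bulk RNA a few cells with much Hox RNA and many cells with little cannot be told apart. Of 8 embryonic stem cell markers 3, 2 and 2 were 2-fold lower, with Nanog at 512, 197, 243 and 209 RPKM and Esrrb at 162, 51.5, 77.0 and 60.2 2-fold lower in each, and Klf2 (95.9, 45.2, 65.4 and 62.5) in Rad23b-null. Of all genes tested 4.61%, 3.4% and 3.6% were 2-fold lower. Of 12 fibroblast markers, which feeder cells would carry, the sums were 3.73 RPKM in wild type and 7.26, 7.13 and 7.14 in the mutants. Most of this was Twist1, at 1.75, 4.41, 5.00 and 4.82, 2-fold higher in both knockdowns. Thy1 stood at 0.759, 1.6003, 1.20 and 1.33 and Prrx1 at 0.0108, 0.0379, 0.0308 and 0.161, also higher in each mutant. Of the fibroblast list 8, 4 and 7 genes were above wild type at any size, of 10, 9 and 10 above 0 in either library. Of low protein-coding genes 70.9%, 68.6% and 68.6% were higher. The matrix and surface genes Postn and Fap were at 0 in all 4 libraries, Col3a1 was at 0 in the 3 mutants and Col1a2 was at 0.206 in wild type and at most 0.0267 in the mutants. Of the 8 mesoderm, 6 neural and 6 endoderm markers matched, only 2, 3 and 1 passed the filter in Rad23b-null and 1, 3 and 1 in each knockdown, and none of these was 2-fold apart. Among single markers picked out after their values were seen, the neural gene Zic1 stood at 0.0234, 0.632, 0.455 and 0.528 RPKM and the endoderm gene Gata4 at 1.26, 3.02, 2.70 and 2.67, so both were higher in each mutant library. Olig2, the highest neural marker in wild type, was lower in each, at 18.0, 11.7, 10.7 and 14.7. Eomes, the highest mesoderm marker, was lower too, at 14.2, 9.36, 12.2 and 8.77. Of 8 mesoderm, 6 neural and 5 endoderm markers above 0 in either library, 4, 5 and 2 were above wild type in Rad23b-null. The counts were 4, 5 and 3 in knockdown 1 and 5, 5 and 2 in knockdown 2. The sums were 16.8, 25.6 and 2.67 RPKM in wild type and 12.5, 23.4 and 4.51 in Rad23b-null. Sums in knockdown 1 and knockdown 2 were 14.5 and 11.4 for mesoderm, 21.98 and 28.6 for neural and 3.93 and 4.10 for endoderm markers. The part of these cells in the Hox values was not tested.

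RAD23B regions were dense over all 4 clusters in wild-type D3 cells. Regions are those the authors listed for each RAD23B library against IgG, and fold is the authors' ratio of RAD23B over IgG reads, scaled by them. The fold heading of the replicate 2 list names the replicate 1 libraries. Which libraries gave the replicate 2 folds is therefore not settled. Counting midpoints from 10 kb before to 10 kb after each cluster, replicate 1 listed 26 regions in HoxA, 38 in HoxB, 49 in HoxC and 19 in HoxD, and replicate 2 listed 16, 25, 39 and 13. Of the 132 regions in replicate 1, 87 (65.9%) overlapped a region of replicate 2 by at least 1 base, near the 65.0% of the whole list. All 93 regions of replicate 2 overlapped replicate 1, against 95.9% of its whole list. Replicate 2 was shallower (62.5 M reads against 109.3 M), and a region missing there may have been too weak to list.

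In density HoxC stood apart. It held 36.1 regions per 100 kb in replicate 1 and 28.7 in replicate 2, and regions covered 21.9% and 14.2% of it. Windows of the same length, laid end to end over the other parts of the chromosomes, held a mean of 3.14 regions and a median of 1 in replicate 1. They were not matched to the clusters for genes or CG content, and the part of these in the density was not tested. None of 18950 windows held as many as the 49 of HoxC (the highest held 47), and in replicate 2 only 1 of 18958 windows held as many as its 39. For HoxB 0.438% and 1.00% of windows held as many in the replicates, for HoxA 0.581% and 1.51%, and for HoxD 1.55% and 2.30%. HoxC had the most regions and the lowest summed RNA in each RNA library, although RNA and ChIP came from different lines. HoxD had the fewest regions (19 and 13), yet its wild-type sum (0.705 RPKM) lay below those of HoxA (1.55) and HoxB (1.18). A link between regions and RNA over the clusters was not tested.

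**Figure D3:**
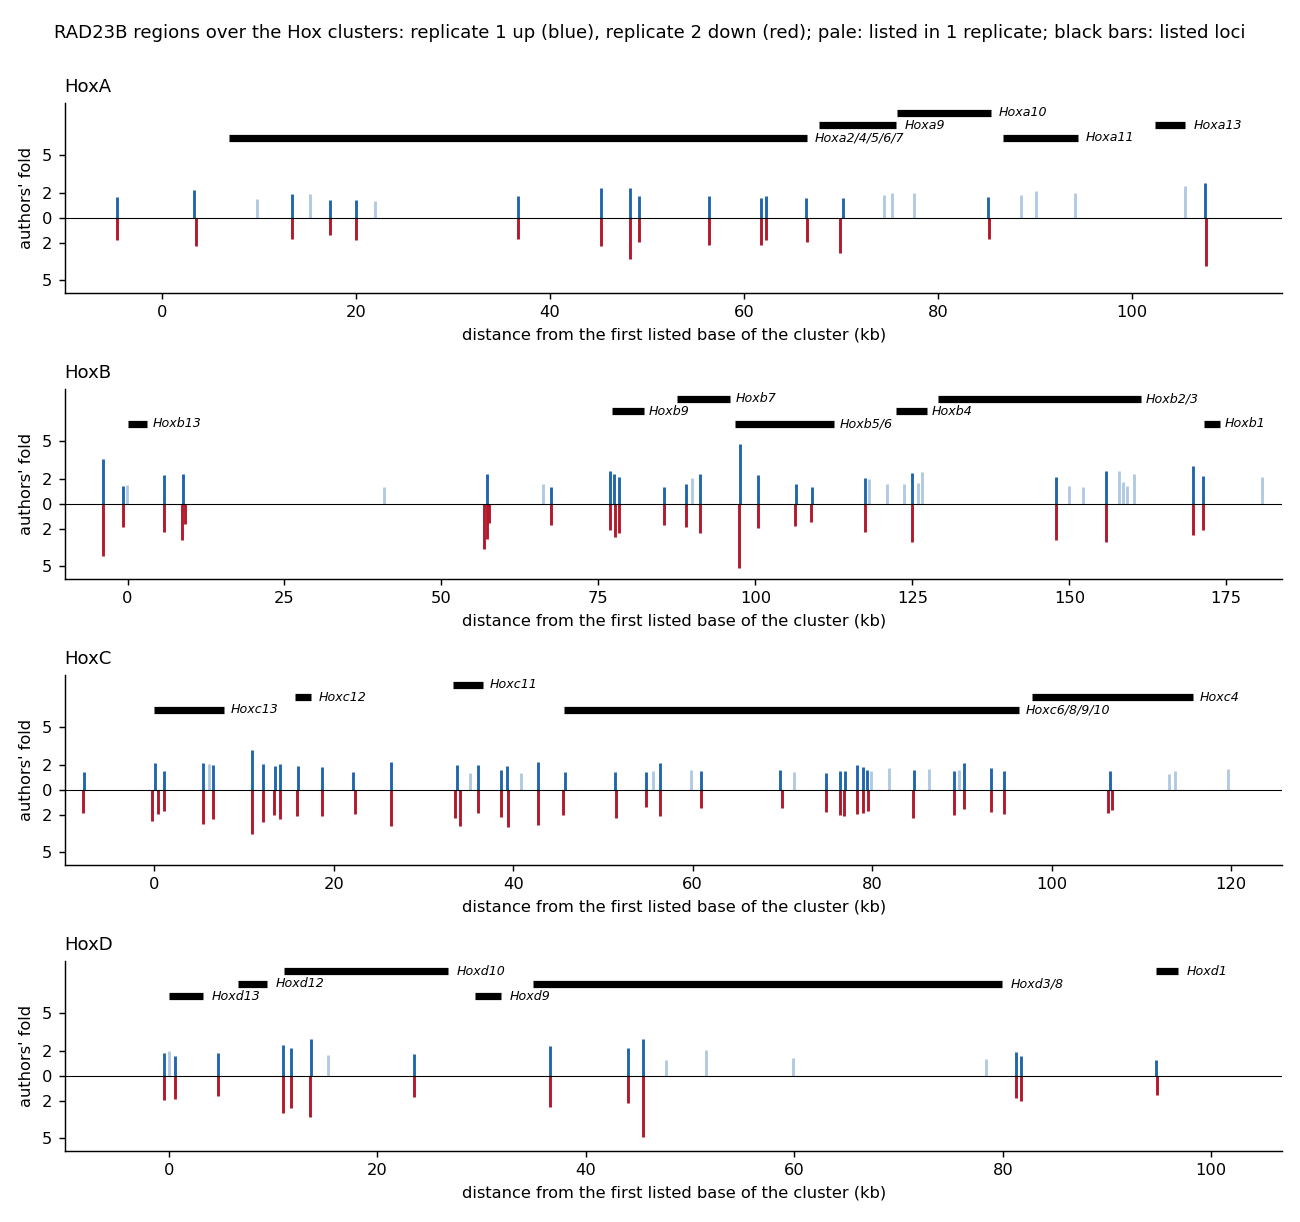
RAD23B regions along each cluster, as distance in kb from its first listed base; lines upward are replicate 1 and lines downward replicate 2, with the height as the authors' fold over IgG, pale lines are regions listed in 1 replicate only, and black bars are listed Hox loci. Lines crowd along HoxC, and the tallest is at the Hoxb5 and Hoxb6 locus (4.77 in replicate 1 and 5.15 in replicate 2).

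The regions were many but not strong. Their median fold was 1.76 in replicate 1 and 2.06 in replicate 2, against 1.88 and 2.09 over the whole lists, and 36.4% and 54.8% were at 2-fold or more, against 41.7% and 56.3%. By cluster the median fold was 1.77 and 1.97 in HoxA, 2.08 and 2.28 in HoxB, 1.61 and 2.001 in HoxC and 1.86 and 2.04 in HoxD (replicate 1 and 2), so HoxB was highest in both lists and the lowest was HoxC in replicate 1 and HoxA in replicate 2. IgG reads per kb had a median of 142 in Hox regions of replicate 1 and 136 over its whole list, and RAD23B reads per kb 257 and 262. The Hox regions were therefore not low in IgG reads.

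The strongest region lay in the listed locus that Hoxb5 and Hoxb6 share (mm9, chr11:96152806-96153392), with 174 RAD23B and 34 IgG reads in replicate 1 and a fold of 4.77, and 5.15 in replicate 2. Both genes were listed at or near 0 RNA in all libraries. A region upstream of Hoxb13 (chr11:96051252-96052136) held 580 RAD23B and 152 IgG reads and had folds of 3.62 and 4.22. One between Hoxc13 and Hoxc12 (chr15:102761834-102762977) held 566 and 167 reads and had folds of 3.22 and 3.53.

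In HoxD the strongest shared regions lay inside the Hoxd8 and Hoxd3 locus (chr2:74551622-74552106, folds 2.94 and 4.92) and inside the Hoxd10 locus (chr2:74519490-74520416, 402 and 130 reads, folds 2.93 and 3.29). In HoxA the strongest, at chr6:52212749-52213072 beyond Hoxa13 on its 5' side, had folds of 2.76 and 3.83. At the start of Gm53 a region (chr11:96112113-96113560) held 553 and 218 reads and a fold of 2.41 in replicate 1.

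Start sites could be read only for the 17 members on coordinates of their own, since the other 17 share a merged locus. Of these 17, 10 had a shared RAD23B region within 1 kb of the listed start, or 58.8%. The share was 14.9% of protein-coding genes below 1 RPKM in wild type, where all Hox genes belong, 75.2% of those at 1 RPKM or more, and 43.7% of both together. The other homeobox genes on coordinates of their own had 13 of 23 (56.5%), so the share was not particular to Hox genes. With only regions at 2-fold or more, 5 of the 17 had one, against 3.92% of the low genes, 22.9% of those at 1 RPKM or more and 13% of both together. Within 5 kb of the locus all 17 had a shared region, against 29.6% of the low genes, 85.3% of the others and 56.2% of both together.

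**Figure D4:**
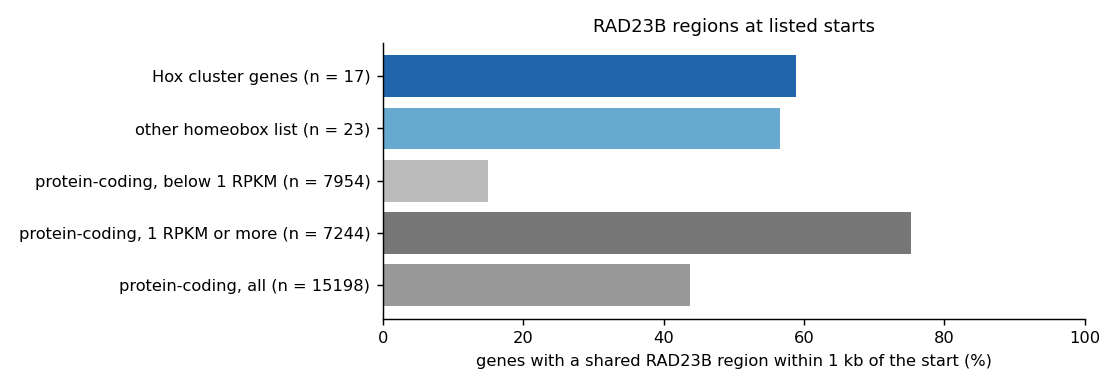
Share of genes on coordinates of their own with a RAD23B region, listed in both wild-type replicates, within 1 kb of the listed start; bars are percentages of the n genes in each set, and RPKM is that of the wild-type library. The Hox genes (58.8%) and the other homeobox list (56.5%) lie above the low genes (14.9%) and below the genes at 1 RPKM or more (75.2%).

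Members with a region at the start were spread over the clusters: Hoxa10, Hoxb1, Hoxb9, Hoxb13, Hoxc11, Hoxc12, Hoxc13, Hoxd1, Hoxd10 and Hoxd13. At Hoxc13 the region (chr15:102750922-102752365) held 469 RAD23B and 207 IgG reads, with folds of 2.15 and 2.46. At Hoxd1, one of the genes with the largest RNA difference, it was weak (chr2:74600741-74601475, 195 and 144 reads, folds 1.29 and 1.501). At Hoxc12, where RNA was at 0 in 3 of 4 libraries, it held 392 and 193 reads with folds of 1.93 and 2.10. Genes with a region at the start thus included both the higher and the lowest of the members in RNA.

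Hoxb4, Hoxb7, Hoxc4, Hoxd9 and Hoxd12 had no region within 1 kb of the start in either replicate, and Hoxa9 and Hoxa13 had one in replicate 1 only. Hoxd9 was nonetheless among the members with the larger RPKM ratios (16.2, 14.3 and 6.33). Counting the whole listed locus, 29 of the 34 members had a shared region, but members of a merged locus count the same regions. By locus, 19 of 24 had one. The Hoxc6 to Hoxc10 locus (50635 bp) held 17 and the Hoxa2 to Hoxa7 locus (59505 bp) held 11. The share over all genes was not computed for this measure, so nothing is read from these counts. The 5 members without were Hoxa11, Hoxa13, Hoxb13, Hoxd9 and Hoxd12.

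The Xpc-null list held no region in any of the 4 clusters. The nearest lay 52.8 kb from HoxB (chr11:96002600-96002793), and the nearest to the others lay 617 kb from HoxC, 3016 kb from HoxD and 6351 kb from HoxA. That list held 828 regions in all, against 59768 and 42364 in the wild-type replicates, from 1 library with no replicate, and windows of the clusters' lengths held a mean of at most 0.0764 of its regions. Its read columns look exchanged or called in the IgG library, which the values do not settle, so the list says nothing about RAD23B at the Hox clusters beyond the lack of a listed region.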

How the data were processed

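The authors gave a list of ChIP-seq regions for each RAD23B library, with a fold over IgG. The fold headings name the IgG library of wild-type replicate 1 in every list. In the replicate 2 list they name the replicate 1 RAD23B library as well. The submitters' processing notes name Partek and the build mm9; the sources used here give neither the ChIP-seq aligner nor the calling thresholds. The deposited lists hold read counts per region and, for the RAD23B signal, a maximum read count with its RPM. Maximum over RPM gave 109.3 M, 62.53 M and 145.1 M reads for wild-type replicate 1, replicate 2 and Xpc-null. The scaled fold is the authors' ratio, used only within a list. Headings of 4 read count columns in the replicate 2 and Xpc-null lists name other libraries or look exchanged, and those columns were not used. The replicate 2 fold was used despite its heading, which does not settle the libraries behind it.

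The authors made the expression tables, also on mm9, using Cuffdiff, Cufflinks 2.0.2 and TopHat2 2.0.6 per the submitters' processing notes, from single-end poly-A reads of 50 bases, per the labels' protocols. The deposited RPKM values were scaled separately in each of the 3 tables. Wild-type values printed are those of the Rad23b-null table, which were 1.026 and 1.017 times those of the knockdown 1 and knockdown 2 tables, and ratios used the wild-type column of their own table. Exactly 1 stands in 13889 wild-type values and no value is 0, so exactly 1 was read as 0. The 72 unnamed lines (0.00144% of wild-type RPKM) were left out. The deposited ratio was not used, and the authors' deposited p-value was used only where named. RNA read totals are unknown.

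Computations used Python 3.11.15, numpy 2.4.6, pandas 2.3.3 and matplotlib 3.10.9, and were tested on simulated data. The log2 ratio used a pseudocount of 1 RPKM and a filter of 1 RPKM in either library. Regions were shared when they overlapped by at least 1 base. A cluster ran from the first to the last base of its listed members, with a margin of 10 kb. Named members are those at 1 RPKM or more in any library or at least 2-fold apart, along with the other genes inside and next to the clusters; of a list, those 2-fold apart and up to 4 of the highest. Members beyond the rule are named to account for the family; 1 member and 1 gene of a list are not reported here by name, and counts and sums include them. The members and lists were chosen with earlier results of these data known. Promoter and microRNA sequences came from RefSeq (GRCm38.p6).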

Additional observations from a re-analysis of the deposited data

How the results depend on the processing

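The counts of 2-fold higher Hox genes were 2, 3 and 3 in Rad23b-null, knockdown 1 and knockdown 2. They became 6, 7 and 7 both with a pseudocount of 0.1 RPKM and with a limit of 1.5-fold, every member that passed the filter, while the shares of all genes became 8.05%, 6.70% and 6.96% and 10.8%, 9.10% and 9.61%. With a pseudocount of 0.5 knockdown 2 gave 7, centring on the median of all genes gave it 5, and genes on coordinates of their own gave Rad23b-null 1. Lower counts say nothing, since members below 1 RPKM in wild type could not be called 2-fold lower in most settings. Higher at any size, 15, 16 and 16 of the 17 members on coordinates of their own remained in the count, since fewer members were counted. The 10 starts with a region became 5 with regions at 2-fold or more and 17 within 5 kb of the locus, and ranged from 10 to 12 with either replicate alone. The 87 regions in the clusters became 38 at 2-fold or more and ranged from 93 to 132 with either replicate alone, the higher value without replicate 2. For 7 genes at 1 RPKM or more, 22 of 63 log2 differences moved by less than 0.22 under another pseudocount or centring and 41 grew, a direction that a smaller pseudocount or this centring fixes for higher genes. The settings on members at 0.05 RPKM and on coordinates in the summed and any-size results were chosen after seeing the data. No paired analysis was possible because each RNA group has 1 library and the region lists come from no test. Low values limit most members: on the smallest matching read numbers 1 read of Hoxc11 was worth 0.0157 RPKM, and no RNA value has a replicate.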

Other observations

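Outside the HoxA cluster, 42834 bp from its nearest listed base, lies the lincRNA gene Gm15055 (mm9, chr6:52052947-52062531), named Halr1 in later annotation and known for its place beside HoxA. It was chosen after its values were seen. It stood at 6.45 RPKM in wild type, 44.9 in Rad23b-null, 47.2 in knockdown 1 and 57.6 in knockdown 2. Its log2 differences of RPKM + 1 were 2.62, 2.73 and 2.997, larger than those of any Hox gene in the same comparison. That scale shrinks the differences of low genes. As ratios of RPKM its differences were 6.97, 7.51 and 9.08, below those of several Hox genes such as Hoxd10 (19.0, 25.6 and 22.6). The coordinates of Gm15055 are shared with no other gene. The authors' deposited table gives it p-values of 0.006, 0.002 and 0.001.

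The same locus held 6 RAD23B regions in wild-type replicate 1 and 5 in replicate 2. The strongest (chr6:52056100-52056663) held 197 RAD23B and 32 IgG reads, with an authors' fold of 5.73 in replicate 1 and 4.78 in replicate 2, above every region listed in the HoxA cluster. A second (chr6:52054935-52055773) held 490 and 94 reads, with folds of 4.93 and 3.98.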
